A study of Homo sapiens with 6 samples.

Results

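Long intergenic noncoding RNAs (lincRNAs) are transcripts without a known protein product that lie mostly between protein-coding genes. They were examined here in HepG2, a human hepatocellular carcinoma cell line. The deposited read table labels 2696 of its 26389 rows as lincRNA, and 274 of these had a mean of at least 1 RPM (reads per 1000000 reads of the library) over the 6 libraries. Those 274 lincRNAs are described below, and the other 2422 lincRNA rows lay under the limit. The members were chosen by their mean level over all 6 libraries, so levels are given as a description, and the rule itself does not use the difference between groups. In 3 libraries the cells carried a control short hairpin RNA plasmid (shCtrl) and in the other 3 a plasmid against TCTP (shTCTP), the translationally controlled tumour protein encoded by TPT1. The plasmids were delivered with a lipid reagent, the labels name no other difference between the groups, and they do not say whether transfected cells were selected. Per the labels' protocols the libraries were directional, made from poly(A)-selected RNA and read from both ends. A harvest at 48 h is stated for quantitative PCR only.

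Many lincRNAs are spliced and polyadenylated like messenger RNAs, but they are often kept in the nucleus, present in few copies and found in few cell types. Some act where they are made, as scaffolds of nuclear bodies or at neighbouring genes. Others, such as the hosts of small nucleolar RNAs (snoRNAs) and microRNAs, are spliced or cut to release a shorter RNA. Liver cancer cells are known for several that are scarce in normal liver, among them HULC and the RNA of LINC00152.

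The libraries held 25427614 to 30486409 reads in genes, and library shTCTP 3 was the shallowest. It also stood apart, correlating with the other 5 at 0.977 on average, where the rest reached 0.986 to 0.987. The labels do not state separate cultures within a group, and every p-value here therefore reflects the variation among these 6 samples, possibly technical variation only. TPT1, the targeted gene, stood at 2575, 2249 and 2290 CPM in shCtrl and 2032, 1807 and 1559 in shTCTP, CPM being RPM after scaling by TMM. The shTCTP mean was 75.9% of control with no overlap between groups, and TPT1 did not pass the threshold (edgeR quasi-likelihood test, log2 fold change -0.40, SE 0.17, Benjamini-Hochberg adjusted p = 0.396). All 18 hepatocyte markers had reads, and their summed level was 30820 to 33510 RPM in shCtrl and 26100 to 30430 in shTCTP. By edgeR 0 of the 18 passed (5 were lower at an unadjusted p under 0.05, and DESeq2 called 3 lower), with a median log2 fold change of -0.30. Over all genes 4.27% were lower at that unadjusted p, and DESeq2 called 0.423% lower. Of 25 markers of other cells 22 had reads (PTPRC, DCN and CHGA are not in the table), and they summed to 945 to 1158 and 862 to 1100 RPM, nearly all from LYZ. In bulk RNA, fewer cells of a type and less RNA per cell cannot be told apart, and the part of these markers in the results below was not tested.

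The 274 lincRNAs were a small and uneven fraction of the RNA. They took 0.2355%, 0.2745% and 0.271% of all reads in shCtrl and 0.310%, 0.3805% and 0.298% in shTCTP. Each shTCTP library was above each shCtrl library, with means of 0.260% ± 0.0215 and 0.329% ± 0.0447 (SD, n = 3). A two-sided exact permutation test gave p = 0.1, which is the smallest that 3 against 3 libraries allow. A single RNA, BCYRN1, held much of the sum. It took 0.0660%, 0.0974% and 0.1003% of reads in shCtrl and 0.1036%, 0.160% and 0.0997% in shTCTP, and its groups overlapped. Without BCYRN1 the other members stood at 0.172% ± 0.00412 and 0.208% ± 0.0113 (SD, n = 3), again with no overlap (exact permutation p = 0.1). The difference between groups was then 0.0360 percentage points in place of 0.0692. With all members in the sum, it was 0.0436 percentage points without shTCTP 2. The pair LINC00152 and MIR4435-2HG alone went from 0.0188% ± 0.00156 to 0.0369% ± 0.00716 (SD, n = 3).

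**Figure D1:**
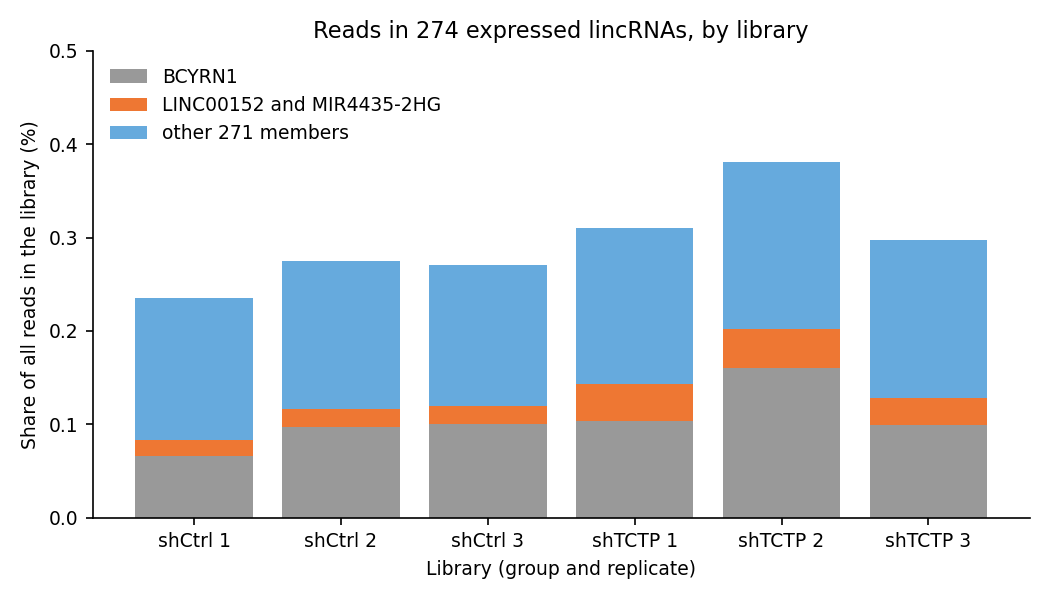
Bars give the percentage of all reads in each library (vertical axis) that fell in the 274 lincRNAs, 1 bar per library, split into BCYRN1, the pair LINC00152 and MIR4435-2HG, and the other 271. The shTCTP bars (0.298% to 0.3805%) all stand above the shCtrl bars (0.2355% to 0.2745%), and the orange pair is larger in each shTCTP library.

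Levels fell off steeply down the list. Only 3 lincRNAs reached 100 RPM, 30 lay between 10 and 100, 144 between 2 and 10, and 97 under 2. The median was 2.73 RPM, and the 10 most abundant held 61.5% of the members' reads. Per length, in the deposited FPKM (RPM per kilobase of gene), the median lincRNA stood at 1.73, against 4.46 for the 11111 protein-coding rows that met the same limit. At the limit itself the values were close. Just inside lay LINC00174 and RP11-568A7.2 at 1.0041 and RP11-278A23.1 at 1.0047 RPM. Just outside lay RP11-700H6.1 at 0.9961, CTD-3252C9.4 at 0.9825 and RP11-244M2.1 at 0.9792.

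The order of abundance depended on the scale. By reads the leaders were BCYRN1 at 1045 RPM, MIR4435-2HG at 216, LINC00176 at 107, SNHG8 at 97.1, RP11-14N7.2 at 75.5 and LINC00657 at 65.8. Among the next were LINC00152 (62.7), SNHG19 (49.7), MALAT1 (48.8), LINC00511 (46.6) and PART1 (25.7). By FPKM, which divides by length, the short snoRNA hosts led. SNHG19 had a mean of 139 ± 28.1 FPKM (SD over 6 libraries) and SNHG8 of 138 ± 27.1, so these neighbours in the order did not differ beyond their spread. RP11-14N7.2 followed at 86.2 ± 17.6 and BCYRN1 at 74.3 ± 21.5, which overlap as well. Below them came SNHG25 (33.9), MIR4435-2HG (31.1), LINC00152 (23.96), TP53TG1 (21.9), RP11-130L8.2 (19.4), LINC00176 (19.4) and RP11-511B23.1 (17.7 FPKM).

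**Figure D2:**
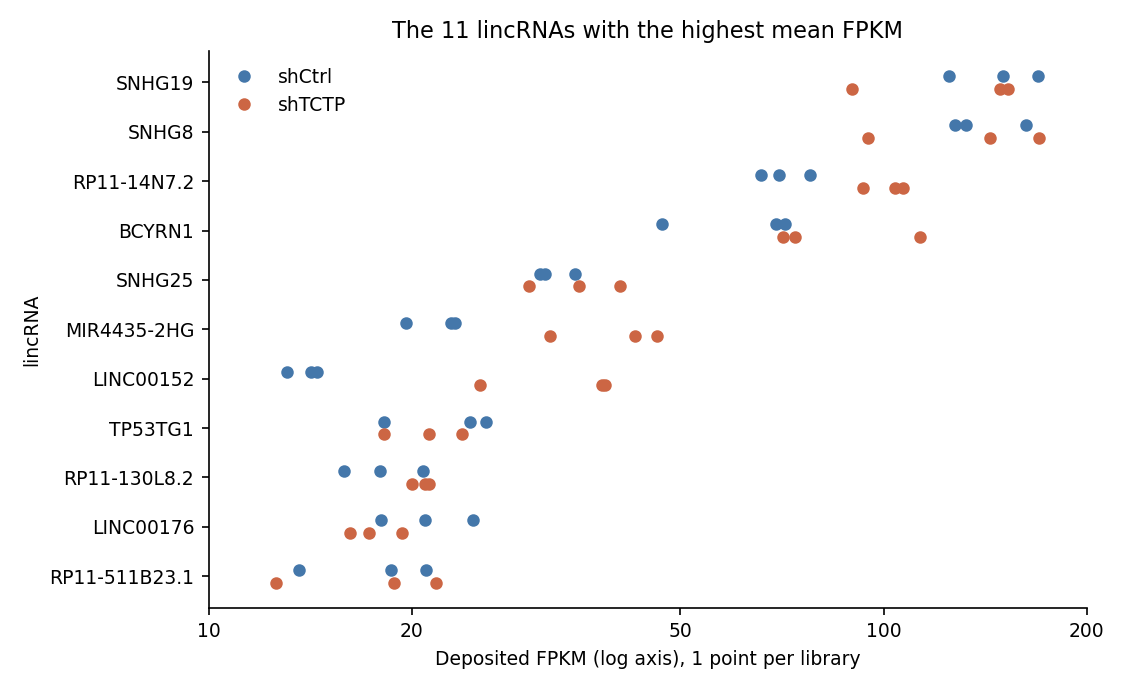
Each point is 1 library's deposited FPKM (log axis) for the 11 lincRNAs with the highest mean FPKM, shCtrl in blue and shTCTP in orange. SNHG19 and SNHG8 lead near 139 and 138 FPKM with overlapping groups, while for MIR4435-2HG and LINC00152 every orange point lies right of every blue point.

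Several of the leading names need care. BCYRN1 is the gene of BC200, a short cytoplasmic RNA made by RNA polymerase III and known as a regulator of translation. The deposited reads and FPKM of BCYRN1 imply a counted length of 14055 bp, whereas GENCODE 29 lists a single exon of 200 bp (chr2:47335315-47335514) typed as scRNA. Its values therefore cover a longer model than BC200 itself. LINC00176 is typed as protein-coding in GENCODE 29 under the name C20orf204. RP11-14N7.2 (LINC02802) shared 100% of its longest transcript with another annotated gene, so its reads may be split or misplaced. Of the 267 members found in GENCODE 29, 237 were lincRNA there, 8 were protein-coding and 8 were processed transcripts. For 22 members more than 50% of the transcript matched other genes (at least 98% identity over 100 bp). An exon lay over a coding exon on the opposite strand in 29 members and on the same strand in 22, and these sets overlap with each other and with the members of shared sequence. Whether strand was used in counting is not given in the sources used here, so reads of overlapping genes cannot be told apart.

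In the comparison of shTCTP with shCtrl, every lincRNA that passed the threshold was higher in shTCTP. All 274 passed the filter on low counts. At an adjusted p under 0.05, 9 rose and 0 fell. The 9 are 3.28% of the members, where 1.26% of all 14197 genes tested were called higher, 0.148% lower and 1.41% in either direction. DESeq2 called 14 higher, the same 9 among them, and 0 lower, where its shares over all genes were 1.79% and 0.423%. At an unadjusted p under 0.05, 35 members were higher and 6 lower, beside 6.8% and 4.27% of all genes. Every shTCTP library lay above every shCtrl library for 44 members (16.1%, against 9.83% of all genes), and below for 18 (6.57%, against 7.3%). The typical lincRNA hardly moved, with a median log2 fold change of 0.04 and quartiles of -0.17 and 0.30, beside -0.002 for the median of all genes. Signs were positive for 156 and negative for 118.

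Other noncoding classes give a background for these counts. Among 359 antisense rows at the same limit 2 were called higher and 1 lower. Among the 293 lincRNA rows below the limit that could be tested 2 were called higher and 0 lower (5 were lower at an unadjusted p under 0.05). The protein-coding rows at the limit had 1.31% called higher and 0.153% lower. Whether the lincRNA share differs from these was not tested. Of the rises, 6 were at least 2-fold, and no member was 2-fold or more lower.

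**Figure D3:**
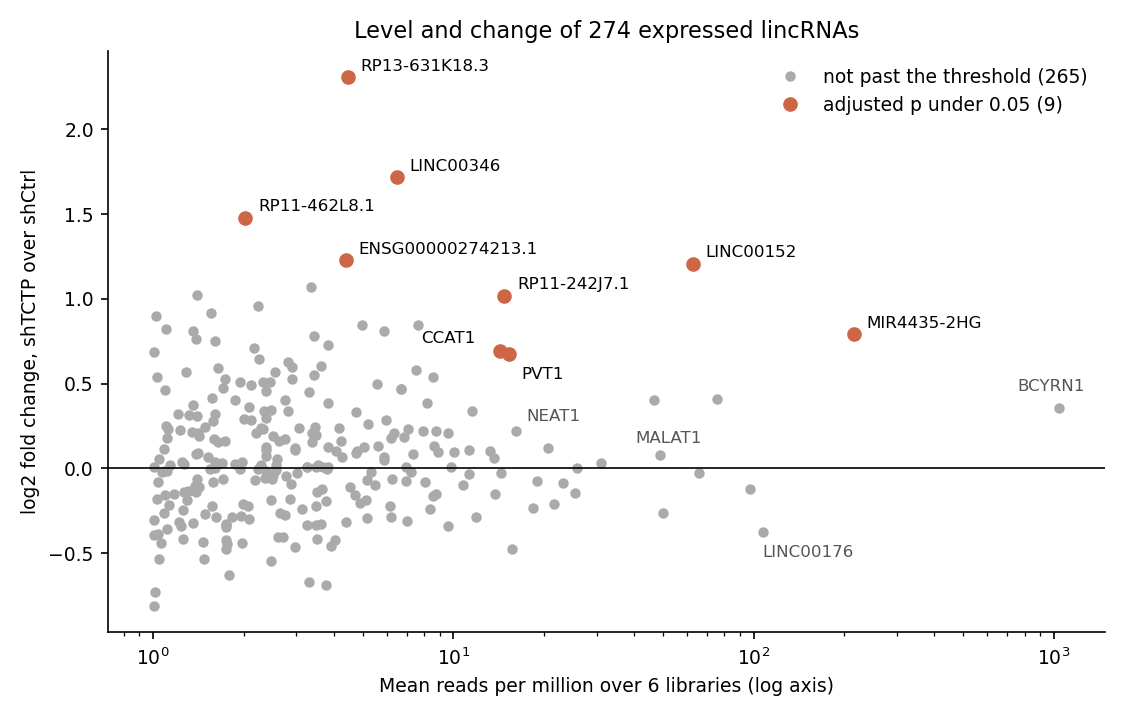
Each point is 1 of the 274 lincRNAs, with its mean RPM over 6 libraries (log axis) against its log2 fold change, shTCTP over shCtrl. The 9 orange points past the threshold all lie above 0 and span low to high levels, from RP11-462L8.1 to MIR4435-2HG, while the grey points spread around 0, more widely at low levels.

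The best-known pair among the risers was LINC00152 and MIR4435-2HG. LINC00152 (CYTOR, ENSG00000222041.10, GRCh38 chr2:87454781-87636740, plus strand) is a cytoplasmic and nuclear RNA raised in many tumours and linked to proliferation. MIR4435-2HG (ENSG00000172965.14, chr2:111036776-111523376, minus strand) is its paralogue on the same chromosome and overlaps the cell death gene BCL2L11 on the opposite strand. LINC00152 stood at 33.6, 39.5 and 40.3 CPM in shCtrl and 104, 102 and 56.5 in shTCTP. The groups did not overlap, and shTCTP 3 was the lowest of its group. LINC00152 rose 2.31-fold (log2 fold change 1.21, SE 0.19, edgeR adjusted p = 0.00222). MIR4435-2HG stood at 133, 166 and 175 CPM in shCtrl and 309, 321 and 190.5 in shTCTP. Again shTCTP 3 lay just above the controls and the other shTCTP libraries far above them. MIR4435-2HG rose 1.73-fold (log2 fold change 0.79, SE 0.18, edgeR adjusted p = 0.0373).

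The pair does not give independent measurements. MIR4435-2HG shared 68.2% of its longest GENCODE 29 transcript (3565 bp) with LINC00152, and LINC00152 30% of its own (7512 bp) with MIR4435-2HG. Reads may therefore have been assigned to either. The counted models may differ in length from these transcripts, and what part of them is shared was not worked out. Both also contain a hairpin for the same microRNA, miR-4435. Without shCtrl 1, LINC00152 missed the threshold (adjusted p = 0.0677). MIR4435-2HG passed when shTCTP 3 was left out, where its log2 fold change was 1.01, and missed when any other library was left out (adjusted p up to 0.22) and with limma voom (0.0564). BCL2L11 itself stood at 7.33 ± 0.907 and 6.99 ± 0.729 CPM (SD, n = 3), a log2 fold change of -0.07 (SE 0.18).

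The largest fold among the members belonged to RP13-631K18.3 (ENSG00000254991.1, chr11:12066929-12073014, plus strand), a 2-exon transcript. It stood at 1.38, 1.15 and 1.90 CPM in shCtrl and 6.92, 9.18 and 5.81 in shTCTP. Every shTCTP library lay far above the highest control. It rose 4.95-fold (log2 fold change 2.31, SE 0.25, edgeR adjusted p = 6.6e-05) and passed with each of the 6 libraries left out. Its nearest coding gene was MICAL2, an actin-oxidising enzyme 20994 bp away on the same strand, which went from 3.79 ± 0.452 to 5.95 ± 1.24 CPM (SD, n = 3). MICAL2 did not pass (log2 fold change 0.65, edgeR adjusted p = 0.186).

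LINC00346 (PRECSIT, ENSG00000255874.2, chr13:110863987-110870251, minus strand) is a single-exon gene near ANKRD10. It stood at 2.53, 3.02 and 3.45 CPM in shCtrl and 9.46, 14.1 and 6.01 in shTCTP. The shTCTP libraries spread widely, with shTCTP 3 lowest, but all lay above the controls. LINC00346 rose 3.29-fold (log2 fold change 1.72, SE 0.26, edgeR adjusted p = 0.00182) and missed the threshold only without shCtrl 1 (0.0662). ANKRD10, 8289 bp away on the same strand, went from 17.0 ± 0.154 to 20.5 ± 1.06 CPM (SD, n = 3), a log2 fold change of 0.27 that did not pass (edgeR adjusted p = 0.48).

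RP11-242J7.1 (LINC02365, ENSG00000254233.1, chr4:184584093-184625030, minus strand) is a 3-exon gene. It stood at 10.2, 8.81 and 9.91 CPM in shCtrl and 19.53, 21.1 and 18.1 in shTCTP. Both groups were tight, and library shTCTP 3 lay close to the other shTCTP libraries. RP11-242J7.1 rose 2.03-fold (log2 fold change 1.02, SE 0.15, edgeR adjusted p = 0.00144) and passed with each library left out.

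A further pair of risers sits at coding genes on the opposite strand. RP11-462L8.1 (ITGB1-DT, ENSG00000229656.6, chr10:32958845-33082102, plus strand) is a divergent transcript of the integrin beta-1 gene and has an exon over one of the exons of ITGB1. It had 30, 42 and 20 reads in shCtrl and 86, 101 and 74 in shTCTP, or 0.984, 1.46 and 0.718 CPM against 2.95, 3.40 and 2.50. It rose 2.79-fold (log2 fold change 1.48, SE 0.29, edgeR adjusted p = 0.0137), while ITGB1 stood at 63.4 ± 10.7 and 68.6 ± 16.8 CPM (SD, n = 3). ENSG00000274213.1 (chr17:56914186-56914533, plus strand) is a single exon 106 bp from TRIM25, a ubiquitin ligase of antiviral signalling. It stood at 2.30, 2.50 and 3.05 CPM in shCtrl and 6.51, 7.87 and 3.99 in shTCTP, with no overlap and shTCTP 3 lowest of its group. It rose 2.34-fold (log2 fold change 1.23, SE 0.25, edgeR adjusted p = 0.0195), and TRIM25 stood at 71.6 ± 5.30 and 77.0 ± 8.02 CPM (SD, n = 3). These risers depended more on single libraries. RP11-462L8.1 missed the threshold without shCtrl 1, shCtrl 3 or shTCTP 2 (adjusted p up to 0.121), and ENSG00000274213.1 without shCtrl 1, shCtrl 2 or shTCTP 2 (up to 0.155).

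The remaining risers, PVT1 (ENSG00000249859.7) and CCAT1 (ENSG00000247844.1), flank MYC on chromosome 8. PVT1 is often co-amplified with MYC in tumours, and CCAT1 is a nuclear-enriched RNA first described in colon cancer. PVT1 stood at 10.95, 11.4 and 12.6 CPM in shCtrl and 18.1, 19.3 and 18.4 in shTCTP. CCAT1 stood at 12.9, 10.6 and 8.94 CPM in shCtrl and 17.4, 18.0 and 17.0 in shTCTP. In neither did the groups overlap, and the shTCTP libraries lay close together. PVT1 rose 1.60-fold (log2 fold change 0.68, SE 0.15, edgeR adjusted p = 0.0292) and CCAT1 1.61-fold (0.69, SE 0.16, adjusted p = 0.0441). Both calls were close to the threshold. PVT1 passed without shTCTP 3 and missed without any other library (adjusted p up to 0.186), and CCAT1 passed without shCtrl 1 or shTCTP 3 and missed without any of the other 4 (up to 0.28). Neither passed with limma on log2(FPKM + 1), where the adjusted p was 0.0755 for PVT1 and 0.0780 for CCAT1, or on log2(FPKM + 0.1) (0.0631 and 0.0604). MYC, the transcription factor gene between them, stood at 123 ± 11.99 and 131 ± 15.9 CPM (SD, n = 3), with a log2 fold change of 0.09 by edgeR (adjusted p = 0.86).

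**Figure D4:**
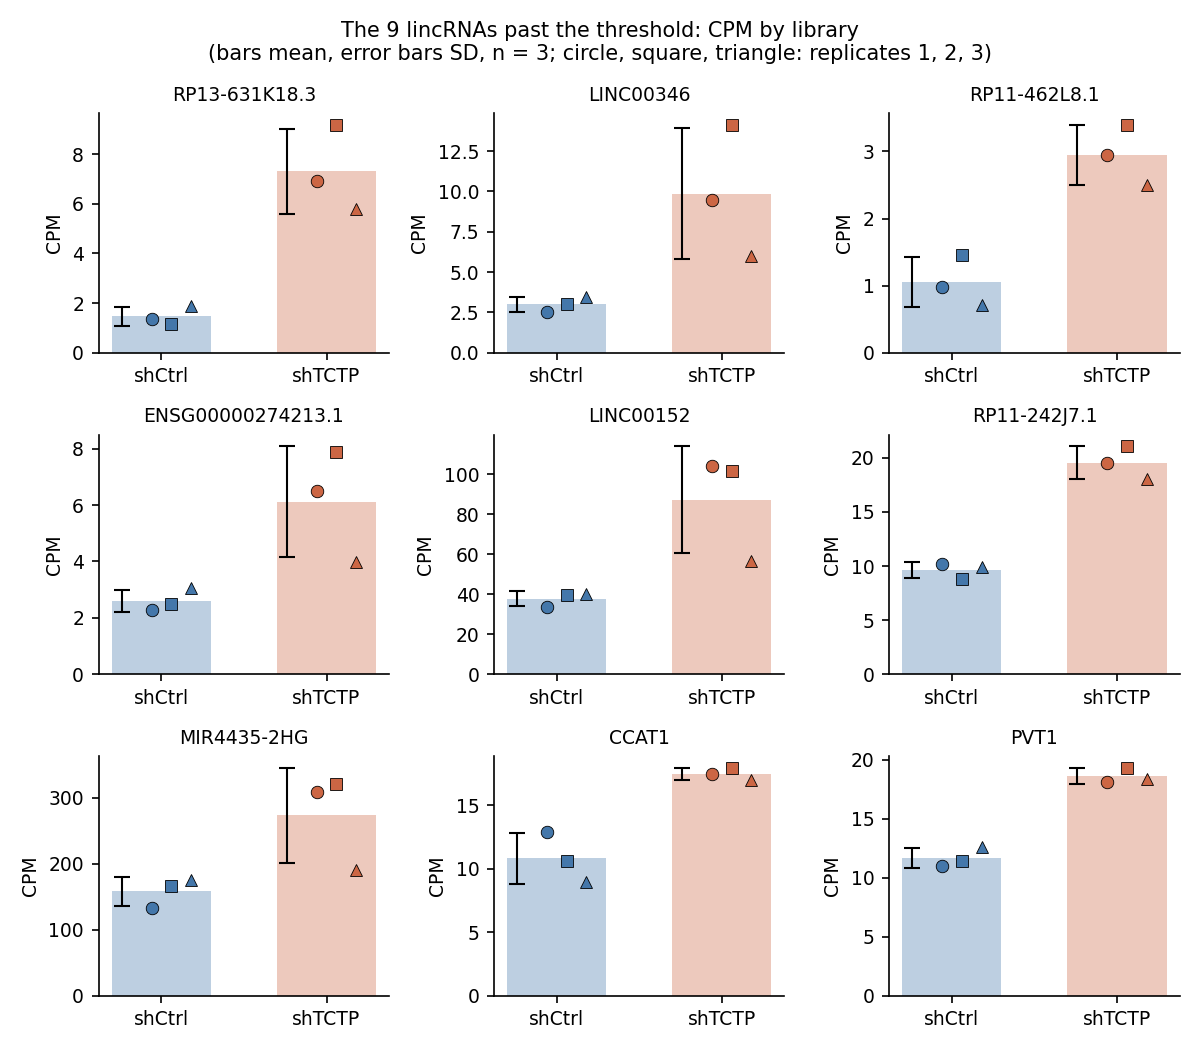
For each of the 9 lincRNAs past the threshold, bars give the group mean in CPM, error bars the SD (n = 3), and symbols the replicates (circle 1, square 2, triangle 3). In every panel the lowest shTCTP symbol lies above the highest shCtrl symbol, and for LINC00152, LINC00346, ENSG00000274213.1 and MIR4435-2HG the shTCTP triangle lies well below the other shTCTP symbols.

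For the starts of the risers, RefSeq (GRCh38.p14) gave a promoter, from 250 bases before to 50 after the start, for 130 of the 274 members and for 4 of the 9 risers. The 4 are printed because the AP-1 site, the recognition sequence of the JUN and FOS family, recurs in 3 of them, which was seen after 9 motifs had been searched. Capitals mark its letters TGANTCA. The windows are chr13:110870259-110870558 (minus), chr2:111495112-111495411 (minus), chr2:87455177-87455476 (plus) and chr4:184624823-184625122 (minus), and each is written 5′ to 3′.
LINC00346: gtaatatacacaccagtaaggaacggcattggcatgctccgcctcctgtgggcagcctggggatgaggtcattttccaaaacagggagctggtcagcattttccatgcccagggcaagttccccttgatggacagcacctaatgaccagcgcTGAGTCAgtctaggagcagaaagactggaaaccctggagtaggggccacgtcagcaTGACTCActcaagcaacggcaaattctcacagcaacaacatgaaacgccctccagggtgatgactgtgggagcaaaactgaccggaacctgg
MIR4435-2HG: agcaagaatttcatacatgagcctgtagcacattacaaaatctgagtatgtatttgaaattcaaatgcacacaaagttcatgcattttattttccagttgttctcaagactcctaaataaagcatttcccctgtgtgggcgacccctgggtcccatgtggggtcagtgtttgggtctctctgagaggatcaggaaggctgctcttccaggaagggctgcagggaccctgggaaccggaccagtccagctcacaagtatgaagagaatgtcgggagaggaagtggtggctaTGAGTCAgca
LINC00152: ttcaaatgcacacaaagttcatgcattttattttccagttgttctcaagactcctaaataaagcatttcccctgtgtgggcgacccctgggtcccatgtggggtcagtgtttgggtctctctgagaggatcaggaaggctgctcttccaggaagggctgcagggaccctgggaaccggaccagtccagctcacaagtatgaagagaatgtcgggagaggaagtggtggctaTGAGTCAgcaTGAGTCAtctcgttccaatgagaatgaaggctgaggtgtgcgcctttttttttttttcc
RP11-242J7.1: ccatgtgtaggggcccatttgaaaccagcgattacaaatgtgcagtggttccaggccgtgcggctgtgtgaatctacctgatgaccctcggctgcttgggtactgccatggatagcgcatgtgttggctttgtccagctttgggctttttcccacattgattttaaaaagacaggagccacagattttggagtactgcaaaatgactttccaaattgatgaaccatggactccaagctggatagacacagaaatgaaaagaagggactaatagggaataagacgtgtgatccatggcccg
The LINC00346 window held the letters at 2 places, LINC00152 at 2, MIR4435-2HG at 1, and RP11-242J7.1 at none. The LINC00152 and MIR4435-2HG windows share an identical run of 241 bases out of 300 and are not independent. RefSeq starts are not always those of GENCODE 29. The MIR4435-2HG window lies inside its GENCODE gene, which begins on the minus strand at chr2:111523376. The LINC00152 window also lies inside its gene, which begins at chr2:87454781. The LINC00346 window lies wholly before its gene, which begins on the minus strand at chr13:110870251. Among the other members, some windows lie wholly before the GENCODE gene, such as those of LINC00973 and RP11-379B8.1. RP11-399K21.11 was matched by name to the promoter of ZNF503.

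The letters TGANTCA occurred on either strand in 7.76% of all 27305 RefSeq promoters and in 16 of the 130 member promoters (12.3%). Of those 16 members 3 rose, 13 had a positive log2 fold change and the median was 0.29. Of the other 114 members 1 rose, 61 were positive and the median was 0.02. The motif was picked out because risers held it, so this split reuses the same values and is not independent evidence. The 16 windows are not all separate either. Those of AC016831.7 and AC058791.1 overlap on opposite strands, and those of LINC00152 and MIR4435-2HG share most of their sequence. These values are a description, and a match of letters is not a bound site. All 9 motifs were searched on both strands. Of all promoters and of member promoters, the cyclic AMP response element TGACGTCA was found in 1.98% and 3.08%, its part TGACG in 25% and 33.8%, and the serum response element core in 1.29% and 0.769%. The hypoxia response core NCGTG was found in 66.5% and 76.2%, and the MYC E-box CACGTG, which overlaps it, in 7.43% and 11.5%. The CAAT box CCAAT was found in 35.7% and 44.6%, the TATA box TATAAA in 12% and 7.69%, and the HNF4 letters CAAAGTCCA in 0.359% and in 0 of the 130.

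By reads the most abundant members on the nuclear list were LINC00657 (65.8 RPM), MALAT1 (48.8), LINC00511 (46.6) and NEAT1 (16.2). Where an RNA lies in the cell was not measured here, and a place on this list does not show that it is nuclear. MALAT1 (chr11:65497688-65506516, plus strand), an RNA of nuclear speckles, stood at 38.8, 57.1 and 46.6 CPM in shCtrl and 52.3, 50.9 and 47.1 in shTCTP. The groups overlapped (log2 fold change 0.08, SE 0.15, edgeR adjusted p = 0.896), and the sign turned without shCtrl 1. NEAT1 (chr11:65422774-65445540, plus strand), the scaffold of paraspeckles, stood at 13.1, 16.4 and 15.2 CPM in shCtrl and 17.4, 18.1 and 16.6 in shTCTP. Every shTCTP library was above every control, by little, and NEAT1 did not pass (log2 fold change 0.22, SE 0.15, edgeR adjusted p = 0.63). Per length, MALAT1 (5.33 ± 0.690 FPKM, SD over 6 libraries) lay near the snoRNA hosts SNHG9 (4.46) and EPB41L4A-AS1 (6.66). MALAT1 and NEAT1 (0.682 ± 0.0993 FPKM, SD over 6 libraries) were far below the leading hosts SNHG19 and SNHG8. Both can be underrepresented in RNA selected for poly(A) tails, since the mature 3′ end of MALAT1 and of the long NEAT1 form is not polyadenylated, and the effect of this on their values was not tested.

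LINC00657 (NORAD), which binds Pumilio proteins, stood at 72.6, 66.9 and 57.5 CPM in shCtrl and 57.8, 57.9 and 78.0 in shTCTP. Here library shTCTP 3 was the highest of all, and the groups overlapped with a log2 fold change of -0.03 (SE 0.15). LINC00511, an oncogenic RNA on both the nuclear and the liver list, stood at 37.0, 43.6 and 39.1 CPM in shCtrl and 54.1, 54.1 and 50.1 in shTCTP. Its groups did not overlap, and it missed the threshold (log2 fold change 0.40, SE 0.13, edgeR adjusted p = 0.174). The X-linked RNAs JPX and FIRRE, known for roles in chromosome silencing and nuclear organisation, gave log2 fold changes of -0.10 and -0.39 and did not pass. Of the 8 members on the nuclear list, 2 rose (PVT1 and CCAT1) and 0 fell, beside 1.26% of all genes called higher and 0.148% lower. The median log2 fold change of the 8 was 0.15. DESeq2 gave the same counts, and 0 were lower at an unadjusted p under 0.05.

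Protein partners of nuclear RNAs were counted alongside. At an unadjusted p under 0.05, 6.8% of all genes tested were higher and 4.27% lower, as a background for the counts below. By edgeR 0 of 28 paraspeckle protein genes passed (3 were higher and 1 lower at an unadjusted p under 0.05, DESeq2 0), with a median log2 fold change of 0.08. PSPC1 and SFPQ, core paraspeckle proteins, had the smallest p, with log2 fold changes of 0.36 (adjusted p = 0.25) and 0.38 (0.361). Of 26 genes of nuclear RNA surveillance, the exosome and its adaptors, 0 passed (4 higher at an unadjusted p under 0.05, DESeq2 0), with ZFC3H1 at 0.69 and ZCCHC8 at 0.47. Of 18 genes of nonsense-mediated decay, which degrades many snoRNA host transcripts, 0 passed (2 higher at an unadjusted p under 0.05, DESeq2 0), with SMG1 at 0.56 and CASC3 at 0.28.

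Of the 11 members on the liver list, RNAs known from liver or liver cancer, 3 rose (LINC00152, CCAT1 and PVT1) and 0 fell. Over all genes 1.26% were called higher and 0.148% lower. CCAT1 and PVT1 are also the risers of the nuclear list, so the counts of these lists are not separate. The median log2 fold change of the 11 was 0.07. DESeq2 also called 3 higher and 0 lower, and 0 were lower at an unadjusted p under 0.05. HULC, whose name stands for highly upregulated in liver cancer, stood at 2.30, 1.87 and 2.33 CPM in shCtrl and 3.22, 3.03 and 3.82 in shTCTP. All shTCTP values were higher, but HULC did not pass (log2 fold change 0.63, SE 0.23, edgeR adjusted p = 0.258). LINC00261, the neighbour of the endoderm factor gene FOXA2, stood at 21.1, 18.4 and 19.2 CPM in shCtrl and 20.5, 18.9 and 16.4 in shTCTP. Its groups overlapped (log2 fold change -0.07, SE 0.15), and LINC01348 and LINC00574 gave -0.15 and -0.35 without passing. LINC00668 (4.26 RPM), LINC01138 (2.35) and LINC01146 (1.61) lay at low levels and did not pass. The most abundant of the list by reads was LINC00152, at 62.7 RPM, followed by LINC00511 (46.6) and LINC00261 (19.1).

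**Figure D5:**
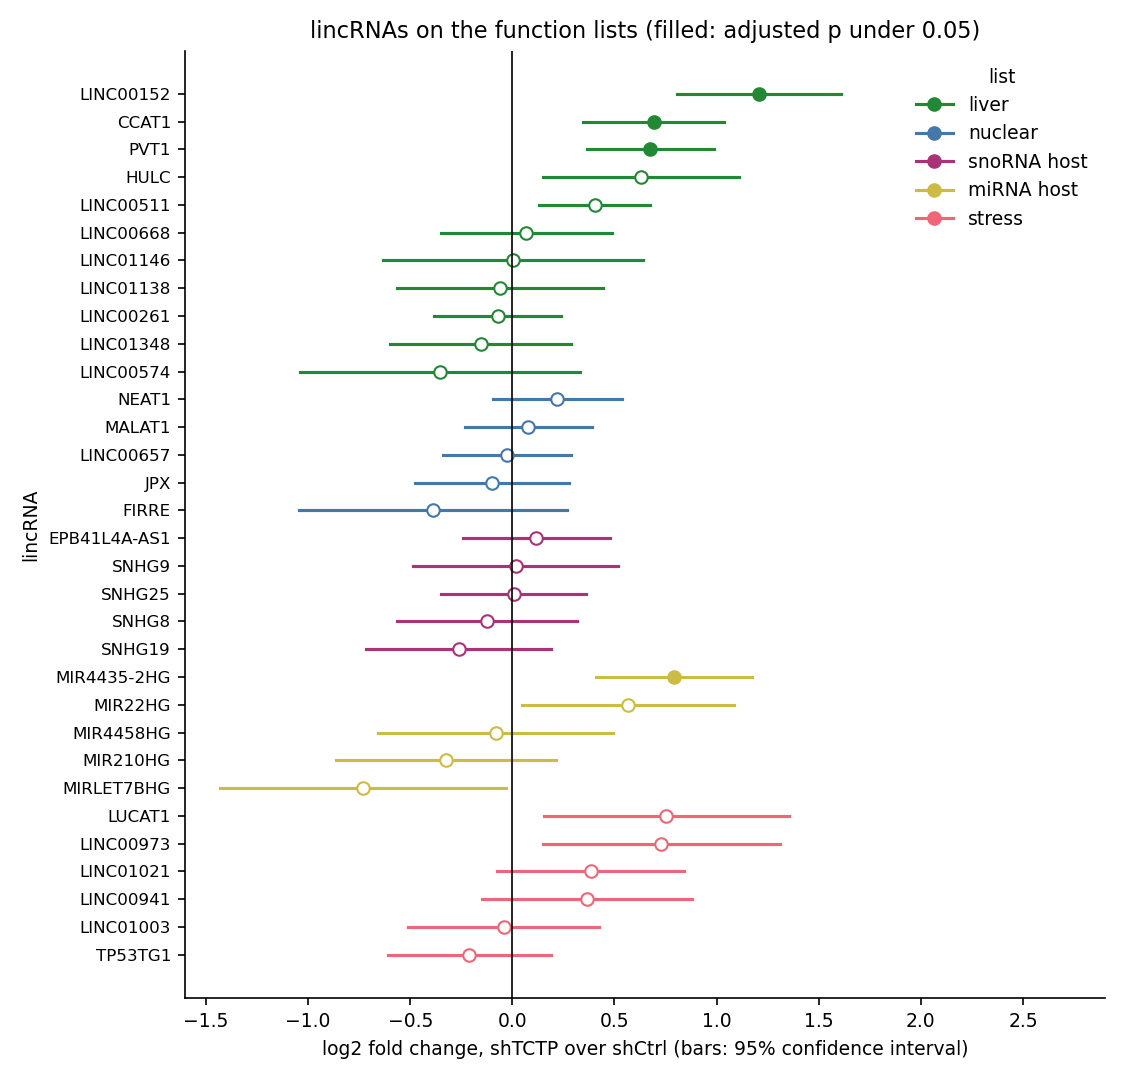
Points give the log2 fold change (horizontal axis, shTCTP over shCtrl) of each lincRNA on the liver, nuclear, snoRNA host, miRNA host and stress lists, bars the 95% confidence interval, and filled points an adjusted p under 0.05. A gene on several lists is drawn once, under the first. The 4 filled points, LINC00152, CCAT1, PVT1 and MIR4435-2HG, lie right of 0, and most open points have intervals that cross 0.

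The snoRNA hosts carry snoRNAs in their introns, which guide modification of ribosomal and other RNAs. Of the 6 members on the snoRNA host list, 1 rose (LINC00152) and 0 fell, beside 1.26% of all genes called higher and 0.148% lower. LINC00152 is better known for its link to proliferation, and whether it carries a snoRNA was not examined here. The others on the list did not pass. The median log2 fold change of the 6 was 0.01. DESeq2 gave the same counts, and 0 were lower at an unadjusted p under 0.05. SNHG8 stood at 91.3, 119 and 97.3 CPM in shCtrl and 124, 101 and 57.0 in shTCTP. SNHG19 stood at 43.9, 63.1 and 58.3 CPM in shCtrl and 55.4, 54.9 and 27.5 in shTCTP. In both, library shTCTP 3 was the lowest of all 6 and the other 2 shTCTP libraries lay within the control range or just above it. The log2 fold changes were -0.12 (SE 0.21) and -0.26 (SE 0.21), and without shTCTP 3 they were 0.15 and 0.01. EPB41L4A-AS1 gave 0.12 (SE 0.17), with 19.9 ± 1.84 and 21.6 ± 4.79 CPM (SD, n = 3). SNHG25 (33.9 FPKM) and SNHG9 (4.46 FPKM) did not pass.

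The microRNA hosts are primary transcripts, and their level need not follow that of the mature microRNA, which poly(A) libraries do not measure. Of 6 members on the miRNA host list 1 rose (MIR4435-2HG) and 0 fell (1 was lower at an unadjusted p under 0.05, DESeq2 0). Their median log2 fold change was -0.07. Over all genes 1.26% were called higher and 0.148% lower, and 4.27% were lower at an unadjusted p under 0.05. The list is not complete. LINC00152, which rose, also contains a microRNA, as do members that were not called, such as RP11-65J21.3, AC058791.1 and LINC00969. The risers PVT1 and CCAT1 were not searched for microRNAs, nor were other members on their chromosome or members without coordinates. A selection of the mature microRNAs of the hosts described here is printed from RefSeq, with the seed (bases 2 to 8), the part that pairs with targets, in capitals.
hsa-miR-4435: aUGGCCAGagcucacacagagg
hsa-miR-22-3p: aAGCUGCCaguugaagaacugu
hsa-miR-210-3p: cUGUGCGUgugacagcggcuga
hsa-let-7a-5p: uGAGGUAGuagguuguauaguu
hsa-let-7b-5p: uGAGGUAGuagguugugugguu
hsa-miR-4458: aGAGGUAGguguggaagaa
The seed GAGGUAG is common to let-7a, let-7b and miR-4458, which come from MIRLET7BHG and MIR4458HG.

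MIRLET7BHG had the more negative value of these hosts, at 1.15, 1.15 and 1.54 CPM in shCtrl and 0.617, 1.01 and 0.675 in shTCTP. Every shTCTP library was below every control, and MIRLET7BHG did not pass (log2 fold change -0.73, SE 0.33, edgeR adjusted p = 0.422). Its mean of 1.01 RPM was just inside the limit, which it met through its shCtrl values, so this separation is a description only. MIR4458HG stood at 8.002, 8.29 and 8.94 CPM in shCtrl and 9.66, 10.5 and 3.71 in shTCTP. Its shTCTP 3 value was far below the other 5, and the log2 fold change of -0.08 became 0.27 without that library. MIR22HG stood at 1.94, 2.43 and 1.69 CPM in shCtrl and 2.71, 2.66 and 3.61 in shTCTP, with no overlap (log2 fold change 0.57, SE 0.25, edgeR adjusted p = 0.396). MIR210HG, from a locus known to respond to low oxygen, overlapped between groups (log2 fold change -0.33, SE 0.25).

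Of 11 members known to respond to stress or p53, 0 passed (3 were higher and 0 lower at an unadjusted p under 0.05, DESeq2 0). Over all genes 6.8% were higher and 4.27% lower at that unadjusted p. The median log2 fold change of the 11 was 0.22. LUCAT1, an RNA raised by oxidative and other stress, stood at 1.34, 1.04 and 1.18 CPM in shCtrl and 2.33, 2.25 and 1.45 in shTCTP. LINC00973 stood at 3.15, 3.54 and 1.97 CPM in shCtrl and 6.03, 5.35 and 3.005 in shTCTP. The LUCAT1 groups did not overlap and those of LINC00973 did, because of shTCTP 3. Their log2 fold changes were 0.75 (SE 0.28, edgeR adjusted p = 0.291) and 0.73 (SE 0.28, 0.292). Without shTCTP 3 both passed, LUCAT1 at 0.95 (adjusted p = 0.0399) and LINC00973 at 0.98 (0.00263). LINC01021 (PURPL), a p53 target, and LINC00941 gave 0.38 and 0.37, each with every shTCTP library above the controls. TP53TG1, named for its induction by p53, gave -0.21 with overlapping groups.

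Members with the most negative estimates were few and not called. RP11-798K3.2 stood at 4.13, 4.89 and 3.30 CPM in shCtrl and 3.19, 2.52 and 2.03 in shTCTP, with no overlap (log2 fold change -0.67, SE 0.24, edgeR adjusted p = 0.249). RP11-568A7.2, at the abundance limit, gave -0.81 (SE 0.40). RMRP, the RNA of the RNase MRP particle, gave -0.69 (SE 0.32), ZNF883 -0.63 and LINC01521 -0.55. RMRP is made by RNA polymerase III without a poly(A) tail. LINC00176, the third most abundant by reads, stood at 114, 104 and 148 CPM in shCtrl and 93.2, 108 and 82.0 in shTCTP, with overlap (log2 fold change -0.37, SE 0.15, edgeR adjusted p = 0.361). The nearest miss on the upper side was RP11-384K6.6, at 2.79, 1.91 and 1.65 CPM in shCtrl and 3.15, 6.36 and 3.88 in shTCTP. Its groups did not overlap (log2 fold change 1.07, SE 0.28, edgeR adjusted p = 0.0822), and DESeq2 called it higher. BCYRN1, the most abundant member, ranged from 649 to 1092 CPM in shCtrl and from 856 to 1601 in shTCTP (log2 fold change 0.36, SE 0.23, edgeR adjusted p = 0.607).

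Library shTCTP 3 weighed on the members unevenly. It was the lowest of the 6 libraries for 97 members and the highest for 39. Against the other shTCTP libraries, its median log2 ratio was -0.32 for the 77 members under 1 kb in counted length, -0.22 for the 124 from 1 to 3 kb and -0.10 for the 73 of 3 kb and over. Library shCtrl 1, the lowest for 63 members, showed the same order against the other shCtrl libraries (-0.23, -0.10 and -0.06), and shTCTP 1 the opposite order (0.14, 0.02 and -0.06). Leaving shTCTP 3 out raised the number of members that rose from 9 to 23, and all 9 were among the 23. In that fit 2.08% of all genes were called higher. The 14 added were AC108488.4, RP11-54O7.17, RP11-37B2.1, RP6-65G23.3, RP1-60O19.1, LINC00973, RP1-140K8.5, RP11-352M15.2, RP11-14N7.2, RP11-384K6.6, RP11-484N16.1, LUCAT1, AC058791.1 and LA16c-380H5.5. The members' median log2 fold change was then 0.12. RP11-14N7.2 stood at 56.6, 64.1 and 74.0 CPM in shCtrl and 94.8, 94.2 and 69.9 in shTCTP, so that only shTCTP 3 fell within the control range. What sets this library apart was not tested.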

How the data were processed

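RNA-seq of 6 HepG2 libraries was used, 3 shCtrl and 3 shTCTP, grouped by their titles. The authors deposited raw read counts per gene and FPKM per gene. The tools named per the submitters' processing notes were edgeR, TopHat2 and bcl2fastq, with the build GRCh38. The annotation, the counting tool and any use of strand were not given in the sources used here. Members were the rows typed lincRNA with a mean of at least 1 RPM, reads scaled to a column total of 1000000. The members, gene lists and tests were chosen with earlier results of these data known, so a list's direction is not independent evidence.

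Counts of all genes were fitted with edgeR 4.0.16 (R 4.3.3; filterByExpr, TMM, robust quasi-likelihood, group only), with Benjamini-Hochberg adjustment over 14197 genes and a threshold of 0.05. Within groups no pair of libraries looked like a repeat deposit, with chi-square statistics 15.1 to 94.1 times their degrees of freedom. The median SE of a member's log2 fold change was 0.25. Named genes were the 12 highest by FPKM and by reads, all past the threshold, the 6 largest estimates in each direction, members of the lists, the rows nearest the limit, the nearest coding gene of each riser and the 2 partner genes of smallest p. Results on 2 genes that this rule would name are not reported here. A member on the rule that was not called is in places given by its level only. Lists covered liver, nuclear, snoRNA host, miRNA host, stress and imprinted RNAs (0 members of the last), and 3 sets of partners. The 14 RNAs added without shTCTP 3 were named after their values were seen.

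Alternatives were RLE and upper quartile scaling, other filters, a block term for replicate numbers, limma 3.58.1 (voom, and log2 FPKM plus 1 or 0.1), DESeq2 1.42.0, no robust fitting and each library left out. Coordinates came from GENCODE 29 by gene identifier (267 of 274 matched), shared sequence from blastn 2.17.0, and promoters and microRNAs from RefSeq GRCh38.p14. Exact permutation tests enumerated every split of the libraries, with means from numpy 2.4.6, and figures used matplotlib 3.10.9.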

Additional observations from a re-analysis of the deposited data

How the results depend on the processing

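Read depth limits the low members, whose log2 fold changes had a median SE of 0.31 under 2 RPM against 0.17 at 10 RPM or more. The 9 risers kept their direction under every setting run. The count of members that rose was 8 to 9 under the other scalings, limma fits, the stricter filter and dispersion without robust fitting, 13 with no filter and 14 with DESeq2. Leaving out 1 library gave 3 (without shCtrl 1) to 23 (without shTCTP 3) that rose and 0 to 1 that fell (RP11-307P5.1, without shTCTP 1). Over all genes, leaving out 1 library gave 76 to 300.0 higher and 3 to 43 lower. The count lower, 21, was 60 with DESeq2, 71 with no filter, and 11 and 6 with limma on log2(FPKM + 0.1) and log2(FPKM + 1). A limit of 2 or 0.5 RPM gave 177 or 444 members.

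Replicate numbers did not pair the libraries (correlations of same-numbered deviations -0.23, 0.0015 and -0.20). With the replicate block 6 members rose, all among the 9, and 0 fell. MIR4435-2HG (adjusted p = 0.0725), CCAT1 (0.0993) and PVT1 (0.103) did not pass in that edgeR fit, and 111 genes were higher over all.

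Signs turned for members near 0. Over the fits that left out 1 library, log2 fold changes ranged from -0.421 to 0.009 for SNHG19, -0.375 to 0.146 for SNHG8, -0.321 to 0.172 for RP11-511B23.1, -0.245 to 0.069 for JPX, -0.148 to 0.021 for LINC00261 and -0.336 to 0.268 for MIR4458HG, with the highest without shTCTP 3. They ranged from -0.173 to 0.052 for LINC00657, -0.05 to 0.231 for MALAT1, -0.289 to 0.006 for LINC01348 and -0.014 to 0.296 for EPB41L4A-AS1. On log2(FPKM + 0.1) and log2(FPKM + 1) LINC00657 stood at 0.072 and 0.068 and LINC00261 at 0.028 and 0.022. The cause was not tested. The members' median log2 fold change ranged from -0.018 to 0.121 and that of TPT1 from -0.496 to -0.295 over the settings. The sum of reads without BCYRN1 was added after seeing the data.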
